A study of Mus musculus with 4 samples.

Results

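The genes described here are 51 mouse genes that encode histone lysine methyltransferases (KMT and SETD enzymes), histone demethylases (KDM enzymes), the core of the Polycomb complexes and the heterochromatin proteins of the HP1 family. They were taken by name from a list of these families and matched to the 53465 gene identifiers of the count table through the GENCODE M21 annotation, where each symbol matched 1 identifier. The libraries are labelled as MLE-12, a transformed mouse lung epithelial line, and hold poly(A) RNA from cells without treatment (control replicates 1 and 2) or from cells exposed for 12 h to 5 µM 1-nitropyrene, a nitrated aromatic hydrocarbon of diesel soot (replicates 2 and 3). The samples all come from this 1 line, and the labels name no other genotype or agent. The series' title places the exposure in a study of epithelial senescence and lung fibrosis.

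Chromatin carries methyl groups on lysines of histones H3 and H4, and the residue decides the reading. H3K4 methylation, written by the KMT2 and SET1 enzymes, marks promoters and enhancers of active genes, and H3K36 methylation marks transcribed bodies. H3K9 methylation, written by SUV39H, EHMT and SETDB1, is bound by HP1 and packs heterochromatin, while Polycomb complex PRC2 writes H3K27 methylation and PRC1 ubiquitinates H2A on silent genes. Demethylases of the LSD and JmjC kinds take these marks off, the former with a flavin cofactor and the latter with iron, oxygen and 2-oxoglutarate. Loss of heterochromatin and of Polycomb silencing is a known feature of senescent cells. RNA counts measure the transcripts of these enzymes, not their protein or the marks themselves.

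Total counts per library ran from 6908055 to 10773733, and ribosomal RNA loci took between 44.3% and 46.1% of them. Of 13 markers of lung epithelium, 11 had 0 counts in all 4 libraries, among them Sftpb, Nkx2-1, Krt8, Krt18, Cdh1 and Epcam. Sftpc and Abca3 were the markers with counts, together 110 and 56 in the controls and 83 and 69 with 1-nitropyrene. Most of these markers of the labelled cell type were thus not seen in this table, and only 1 of the 13 could be tested. A 0 here does not show that a gene is not expressed, since some genes that nearly all cells use were also low. B2m had 0 to 4 counts, Tubb5 13 to 29 and Rplp0 40 to 103. Other such genes had more: Gapdh had 309 to 737, Hprt 731 to 1009, Ppia 4284 to 6742, Eef1a1 17502 to 28423 and Actb 76931 to 119049. All of these genes were chosen after their values were seen. Levels of different genes are therefore given as the table lists them. The 13 mesenchymal markers summed to 537 and 523 CPM (counts per 1e+06 counts, scaled with TMM factors) in the controls, against 815 and 803 CPM with 1-nitropyrene, higher in both treated libraries. Of these 13 markers only 4 had enough counts to be tested, and 1, Thy1, had 0 counts in all 4 libraries. The sum does not show how many of them rose. The 5 endothelial markers summed to at most 0.287 CPM and the 6 leukocyte markers to at most 0.430 CPM. The 13 mitochondrial mRNAs summed to 46.5 and 30.1 CPM in the controls, 24.8 CPM in 1-nitropyrene replicate 2 but 1.88 CPM in the remaining library, 1-nitropyrene replicate 3. The part of these marker and mitochondrial differences in the results below was not tested. In bulk RNA fewer cells of a type and less RNA per cell cannot be told apart.

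All comparisons are of 1-nitropyrene with control. Adjusted p-values come from the quasi-likelihood test of edgeR on 7738 genes, with Benjamini-Hochberg adjustment, and genes with an adjusted p under 0.05 were called. No label states that the cultures were separate, so the spread between libraries may be technical. These p-values weigh a change against a spread drawn from all genes together by level, not from the gene's own replicates. With 2 libraries against 2, an exact two-sided permutation test of a single gene cannot go below p = 0.333, so no such test is given.

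Of the 51 genes 48 could be tested, and 15 fell while 6 rose. That is 21 called genes, or 43.8%, beside 24.5% of all 7738 genes tested. The CPM ranges of the groups did not overlap in 35 of the 48 genes, beside 59.2% of all genes tested. Among genes that averaged 30 CPM or more, they did not overlap in 28 of 36 members, beside 71.7% of all such genes. By direction, 31.2% of the tested members fell, beside 11.2% of all genes, and 12.5% rose, beside 13.2% of all genes. Their median log2 fold change was -0.07, beside 0.00 over all genes. Their counts were high, with a median of 59.6 CPM beside 16.6 CPM over all genes tested, and the share called is larger among genes with high counts. Among genes that averaged 10 CPM or more, 20 of 43 members were called (46.5%), beside 34.3% of all genes at that level. Of these 43, 14 fell, beside 14.4% of all genes, and 6 rose, beside 19.8%. Among genes that averaged 30 CPM or more, a split chosen after the values were seen, 12 of 36 fell (33.3%), beside 17% of all such genes, and 6 of 36 rose (16.7%), beside 25.9%.

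**Figure D1:**
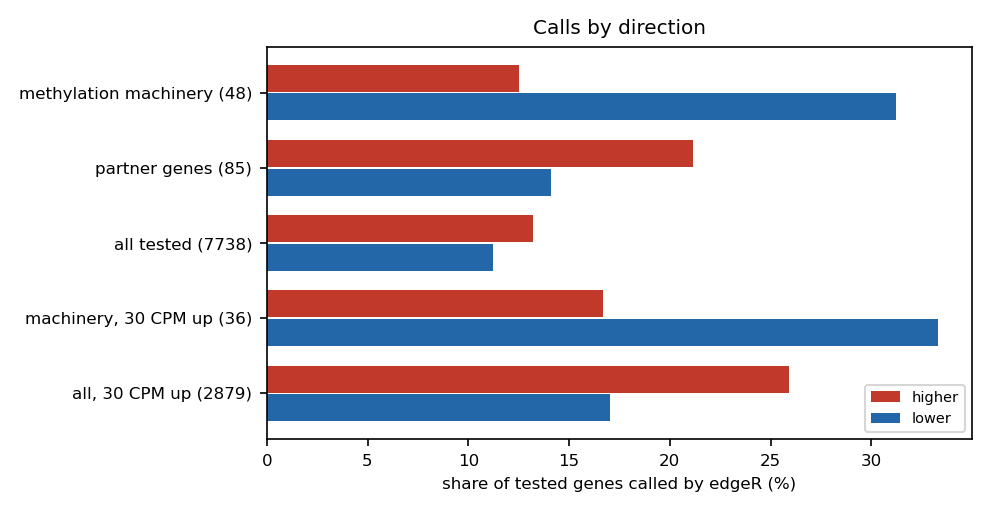
Share of tested genes called higher (red) or lower (blue) with 1-nitropyrene by edgeR, with the number of tested genes in brackets. The methylation genes have 31.2% lower against 12.5% higher, while all tested genes have 11.2% and 13.2%, and at 30 CPM or more the methylation genes have 33.3% lower and 16.7% higher.

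Not all of these calls are equally firm. The changes were small, between 0.58-fold and 1.46-fold. Of the 21 called genes 9 were also called by DESeq2 and with each library left out in turn: Kmt2b and Kdm3a, which rose, and Kmt2c, Kmt2e, Setd7, Nsd2, Setd5, Suz12 and Cbx1, which fell. The other 12 are named below with the setting that ended their call. The 3 genes that could not be tested were the H4K20 methyltransferase Kmt5c and the H3K9 methyltransferase Setdb2, both listed at 0 counts in all 4 libraries, and the demethylase Kdm4b, with 1 count in control replicate 1. Taking 3 counts as the limit, a gene without counts could have reached 0.434 CPM in control replicate 2, by counting error alone.

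**Figure D2:**
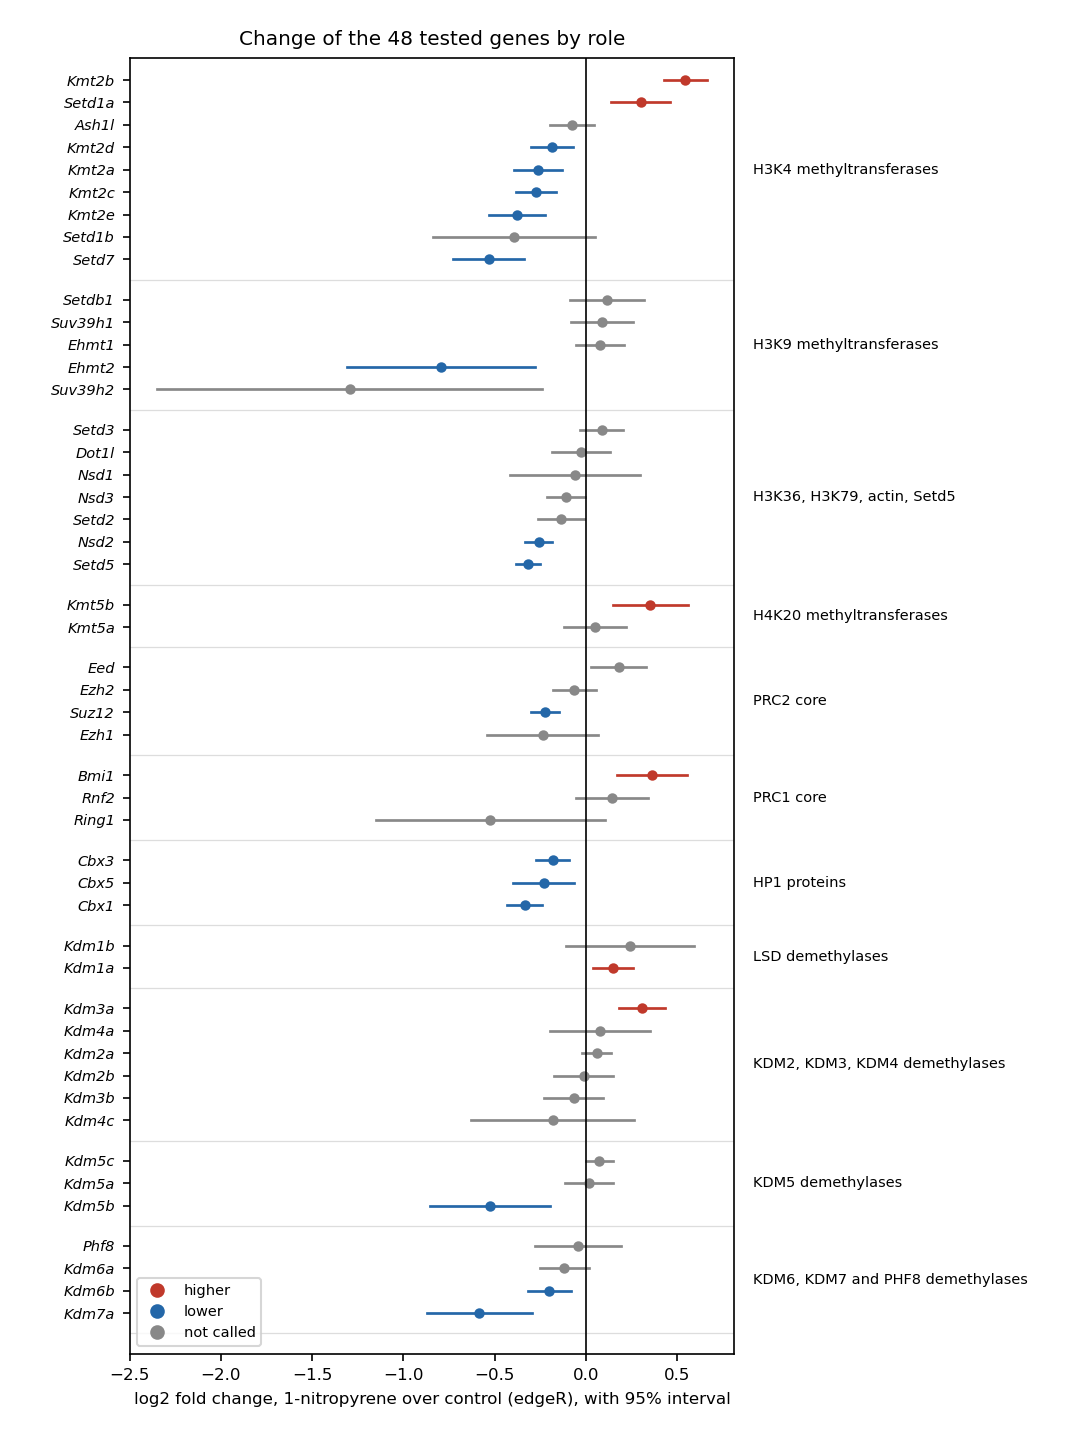
Log2 fold change of each of the 48 tested genes (point) with its 95% interval (bar) from edgeR, grouped by role. Red genes were called higher, blue genes lower and grey genes not called; Kmt2b lies highest, at 0.55, and Suv39h2, with the widest interval, lowest, at -1.29.

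The 250 bases before RefSeq's start are printed here for some genes called lower, the HP1 genes and the KMT2 genes Kmt2a and Kmt2d. They come from RefSeq's windows on GRCm38.p6 and run 5′ to 3′ on the strand of the gene. Capitals mark GGGCGG or its complement CCGCCC, the GC box bound by SP and KLF factors. Among the printed genes only Cbx1 kept its call under every alternative. Kmt2c, Suz12 and Setd7 also fell and kept theirs but are not printed, and their windows held 12, 3 and 0 GC boxes. Cbx1 lies at chr11:96788885-96789134 (plus strand), Cbx3 at chr6:51470366-51470615 (plus), Cbx5 at chr15:103239853-103240102 (minus), Kmt2a at chr9:44881290-44881539 (minus) and Kmt2d at chr15:98871206-98871455 (minus). RefSeq's start of Cbx3 lies 256 bases inside the gene as GENCODE gives it (start 51470360), so that its window falls within the GENCODE gene.
Cbx1: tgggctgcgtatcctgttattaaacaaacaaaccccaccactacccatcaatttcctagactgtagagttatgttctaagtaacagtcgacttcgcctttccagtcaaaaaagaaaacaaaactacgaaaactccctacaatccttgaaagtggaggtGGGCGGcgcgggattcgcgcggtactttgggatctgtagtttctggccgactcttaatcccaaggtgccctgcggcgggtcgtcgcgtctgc
Cbx3: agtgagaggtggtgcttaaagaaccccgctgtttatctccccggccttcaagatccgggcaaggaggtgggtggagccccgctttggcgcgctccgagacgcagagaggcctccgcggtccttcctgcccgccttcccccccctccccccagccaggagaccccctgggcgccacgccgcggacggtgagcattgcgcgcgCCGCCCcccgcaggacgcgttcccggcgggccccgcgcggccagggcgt
Cbx5: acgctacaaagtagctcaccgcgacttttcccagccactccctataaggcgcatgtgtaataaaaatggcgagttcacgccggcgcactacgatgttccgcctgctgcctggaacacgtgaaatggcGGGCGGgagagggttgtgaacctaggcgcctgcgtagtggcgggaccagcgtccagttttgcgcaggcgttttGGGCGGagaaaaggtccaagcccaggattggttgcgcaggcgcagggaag
Kmt2a: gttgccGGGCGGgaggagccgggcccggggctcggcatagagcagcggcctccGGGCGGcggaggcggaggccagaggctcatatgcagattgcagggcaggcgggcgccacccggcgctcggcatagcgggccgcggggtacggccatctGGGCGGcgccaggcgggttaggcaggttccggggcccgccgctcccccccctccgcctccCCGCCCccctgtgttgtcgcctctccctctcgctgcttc
Kmt2d: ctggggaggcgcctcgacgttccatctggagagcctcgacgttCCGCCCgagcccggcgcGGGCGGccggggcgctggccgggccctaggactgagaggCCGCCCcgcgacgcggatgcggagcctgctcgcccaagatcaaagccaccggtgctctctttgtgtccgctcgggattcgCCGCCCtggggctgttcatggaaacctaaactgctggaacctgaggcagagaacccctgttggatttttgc

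RefSeq's table held a window for 39 of the 51 genes, and 38 of these lay within 1000 bases of the GENCODE start. The GC box stood in 27 of the 38 windows (71.1%), beside 67.3% of 5047 windows of tested genes and 43.2% of all 17275 windows. It was present in 10 of 11 windows of genes that fell, 3 of 5 windows of genes that rose and 14 of 20 windows of genes not called. The windows held a median of 21 CpG dinucleotides, beside 19 for tested genes and 10 for all genes, with 16 in Cbx1, 29 in Cbx3, 22 in Cbx5, 29 in Kmt2a and 26 in Kmt2d. The windows of the methylation genes thus held the GC box and CpG about as often as those of tested genes. A match is a description of the letters and not a bound site.

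Among the H3K4 methyltransferases, 7 of 9 were called, in opposite directions: Kmt2b and Setd1a rose, and Kmt2a, Kmt2c, Kmt2d, Kmt2e and Setd7 fell. For comparison here and in the groups below, 24.5% of all genes tested were called. Of those that averaged 30 CPM or more 42.9% were called, 25.9% higher and 17% lower. Kmt2b (chromosome 7, 30568858 to 30588726) encodes MLL2, a promoter-bound trimethylase that works with menin. It stood at 87.2 and 92.9 CPM in the controls and at 132 and 130 CPM with 1-nitropyrene. The treated libraries were close to each other and well above both controls. The log2 fold change was 0.55 (SE 0.06, adjusted p = 8.66e-18), the largest rise among the 48 tested genes. No other annotated gene shared exon sequence with it.

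The paralogue closest to it in domain structure, Kmt2a (MLL1), moved the other way. It had 95.6 and 93.0 CPM in the controls, against 83.8 and 73.8 CPM with treatment, or a log2 change of -0.26 (SE 0.07, adjusted p = 0.000829). Both treated libraries were lower, but the call ended in DESeq2 (adjusted p = 0.111), without control replicate 1 and without 1-nitropyrene replicate 3. The antisense transcript AC061963.1 shares 378 bp of exon with Kmt2a and had 112 and 78 counts in the controls, against 89 and 71 with treatment.

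Kmt2c and Kmt2d (MLL3 and MLL4) place single methyl groups on H3K4 at enhancers. Kmt2c fell from 142 and 139 CPM to 115 and 118 CPM, or a log2 change of -0.27 (SE 0.06, adjusted p = 1.61e-05). Kmt2d had 127 and 113 CPM in the controls, against 105 and 108 CPM with treatment (-0.18, SE 0.06, adjusted p = 0.0105). The distance between the 2 control libraries of Kmt2d exceeded that between control replicate 2 and the treated libraries, and its call ended in DESeq2, at an adjusted p of 0.01, and without control replicate 1 or 1-nitropyrene replicate 2.

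The KMT2 enzymes work with the same core subunits, and their levels relative to one another are given in each library. Such a ratio does not depend on the scaling of the libraries. Per kb of exon, Kmt2b stood to Kmt2a at 1.59 and 1.73 in the controls and at 2.73 and 3.05 with 1-nitropyrene. The ratio of Kmt2b to Kmt2d was 1.43 and 1.71 in the controls and 2.61 and 2.49 with treatment. In the summed level of Kmt2a, Kmt2b, Kmt2c and Kmt2d, the share of Kmt2b was 32.3% and 34.9% in the controls and 46.3% in both treated libraries. The sum itself changed little, at 28.2 and 27.8 CPM per kb in the controls and 29.7 and 29.2 CPM per kb with treatment.

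**Figure D3:**
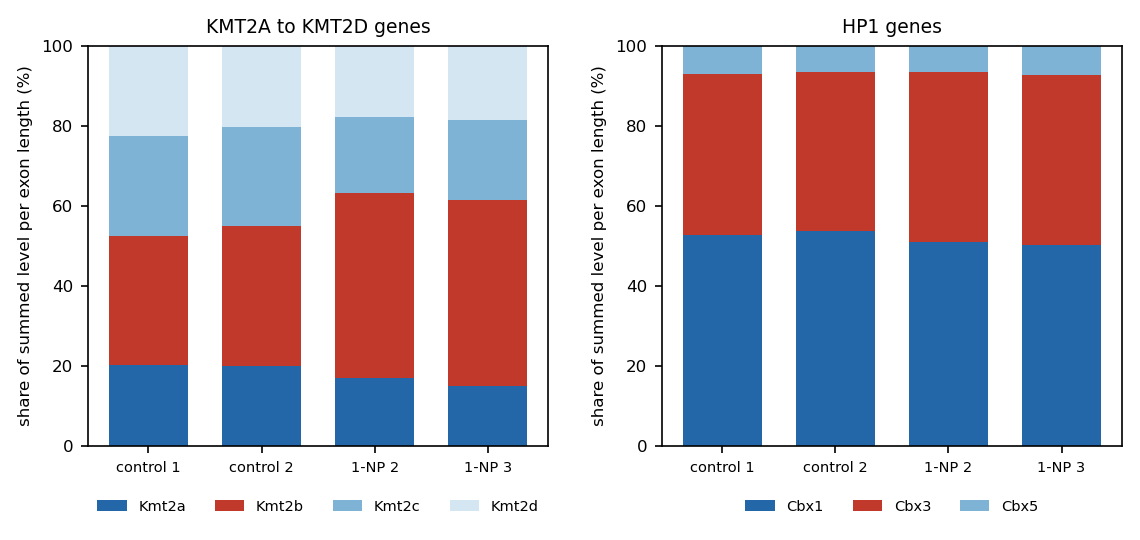
Share of each gene in the summed level per exon length of its family (percent), in each of the 4 libraries, for the KMT2A to KMT2D genes and the HP1 genes (1-NP: 1-nitropyrene). The Kmt2b share is 32.3% and 34.9% in the controls and 46.3% in both treated libraries; the HP1 shares move by a few percentage points at most.

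Setd1a and Setd1b are the catalytic subunits of the COMPASS complexes, which lay down most H3K4 trimethylation. Setd1a had 49.7 and 50.3 CPM in the controls, against 64.9 and 58.2 CPM with treatment, or a log2 change of 0.30 (SE 0.08, adjusted p = 0.00192). Its call ended in DESeq2 (adjusted p = 0.135), without control replicate 1 and without 1-nitropyrene replicate 2. Setd1a shares 3523 bp of exon with Gm49388 on the same strand, which had 0 counts, and how the authors' counting treated shared exons is not given in the sources used here. Setd1b had 9.47 and 7.17 CPM in the controls, against 6.90 and 6.11 CPM with treatment, and was not called (log2 fold change -0.39, SE 0.23, adjusted p = 0.204). The ratio of Setd1a to Setd1b per kb, 9.31 and 12.5 in the controls, was 16.7 and 16.9 in the treated libraries.

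Kmt2e (MLL5) carries a SET domain without clear methyltransferase activity and reads H3K4 trimethylation. It had 69.4 and 71.4 CPM in the controls, against 55.2 and 52.8 CPM with treatment (-0.38, SE 0.08, adjusted p = 1.77e-05). Kmt2e shares 972 bp of exon with Srpk2 on the opposite strand, which had 575 and 371 counts in the controls, against 389 and 433 with treatment, and was not called. Setd7, which monomethylates H3K4 and many proteins other than histones, fell from 44.8 and 49.0 CPM to 34.8 and 29.4 CPM (-0.53, SE 0.10, adjusted p = 1.07e-06). For both genes the treated libraries lay below the controls and every alternative kept the call. Ash1l, often listed with this group although it dimethylates H3K36, had 105 and 107 CPM in the controls, against 98.8 and 102 CPM with treatment, and was not called (adjusted p = 0.4).

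**Figure D4:**
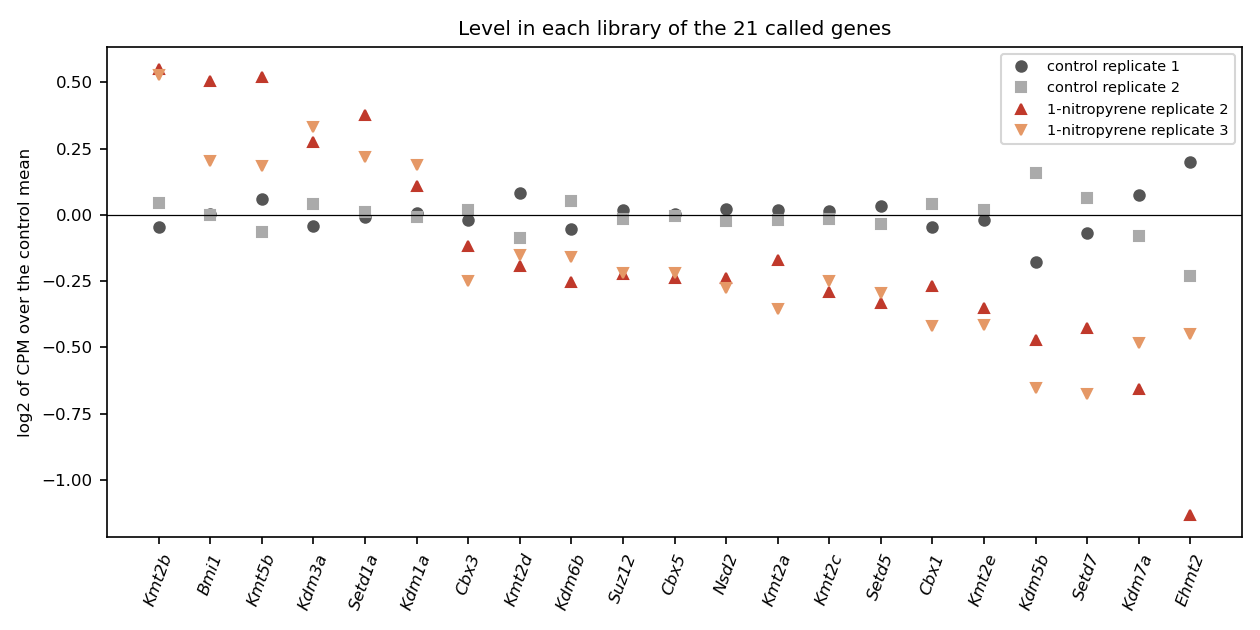
Level of each of the 21 called genes in each of the 4 libraries, as log2 of the CPM over the mean of the controls. In every gene both 1-nitropyrene libraries (triangles) lie on the same side of both controls (grey), and the treated libraries are furthest apart in Ehmt2, Bmi1 and Kmt5b.

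All 3 HP1 genes fell. HP1 proteins bind methylated H3K9 through a chromodomain and recruit further silencing factors through a chromoshadow domain. Cbx1 (HP1 beta) had 198 and 210 CPM in the controls, against 170 and 153 CPM with treatment, or a log2 change of -0.34 (SE 0.05, adjusted p = 1.35e-10). Every alternative kept this call. Cbx3 (HP1 gamma) had 211 and 216 CPM in the controls, against 197 and 180 CPM with treatment (-0.18, SE 0.05, adjusted p = 0.00087). Cbx5 (HP1 alpha) had 55.6 and 55.5 CPM in the controls, against 47.0 and 47.7 CPM with treatment (-0.23, SE 0.09, adjusted p = 0.0326).

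The treated libraries lay below the controls in each of the 3 genes, and groups without overlap made up 71.7% of all genes that averaged 30 CPM or more. The Cbx3 call was lost in DESeq2 (adjusted p = 0.0863), and leaving out 1-nitropyrene replicate 3 also ended it (adjusted p = 0.115). The Cbx5 call ended in DESeq2 (adjusted p = 0.319), at an adjusted p of 0.01, and without any 1 of the 4 libraries. Cbx3 also has near-identical copies elsewhere, of which Gm49164 and Cbx3-ps6 on chromosome 14 held 1115 and 804 counts over the 4 libraries, so that its reads may be split among loci. Summed per kb of exon, the 3 HP1 genes reached 87.8 and 91.5 CPM per kb in the controls and 77.8 and 71.0 CPM per kb with treatment. Their proportions hardly moved, with Cbx1 at 52.8% and 53.8% of the sum in the controls and 51.1% and 50.3% with treatment.

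Cbx3 and Cbx5 are each transcribed away from a gene of an RNA-binding protein that starts within 1000 bp, Hnrnpa2b1 (466 bp) and Hnrnpa1 (616 bp). Hnrnpa2b1 fell with Cbx3, by 0.14 on the log2 scale (SE 0.02, adjusted p = 2.42e-07). Hnrnpa1, opposite Cbx5, had 1779 and 1070 counts in the controls, against 1540 and 1443 with treatment, and was not called (log2 fold change 0.12, SE 0.05, adjusted p = 0.055). So in 1 of these pairs both genes were called lower, and in the other the neighbour had a change of the opposite sign that did not pass the test. Setd3, which was not called, starts 265 bp from the cyclin gene Ccnk, which rose (0.38, SE 0.10, adjusted p = 0.00143). These pairs were picked out after their values were seen.

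Of the enzymes that write the mark HP1 binds, 1 of 5 tested genes was called. Setdb1, which methylates H3K9 at silenced repeats, had 32.4 and 35.5 CPM in the controls, against 33.8 and 39.1 CPM with treatment. Suv39h1, a trimethylase of pericentric heterochromatin, had 47.5 and 49.9 CPM in the controls, against 52.4 and 50.5 CPM with treatment. Suv39h1 shares 767 bp of exon with the opposite-strand gene Gm14820. That gene had 199 and 151 counts in the controls, against 228 and 168 with treatment. Ehmt1 (GLP) had 84.3 and 83.7 CPM in the controls, against 88.2 and 89.0 CPM with treatment, or a log2 change of 0.08 (SE 0.07, adjusted p = 0.449). Its partner in H3K9 dimethylation, Ehmt2 (G9a), fell from 8.09 and 6.02 CPM to 3.22 and 5.17 CPM (-0.80, SE 0.26, adjusted p = 0.0136). That change rests on 88 and 42 counts in the controls, against 28 and 44 with treatment, and the call ended without control replicate 1 (or 1-nitropyrene replicate 2) and at an adjusted p of 0.01, while DESeq2 gave no adjusted p. Suv39h2 had 20 and 16 counts in the controls, against 5 and 9 with treatment, and did not pass the test (-1.29, SE 0.54, adjusted p = 0.0625).

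Among methyltransferases for H3K36 and H3K79, with the actin enzyme Setd3 and Setd5, 2 of 7 genes were called, Setd5 and Nsd2, and both fell. Setd5 encodes a chromatin protein with a SET domain whose catalytic activity is disputed. It had 536 and 511 CPM in the controls, against 416 and 426 CPM with treatment, or a log2 change of -0.32 (SE 0.03, adjusted p = 2.52e-18). Nsd2, which dimethylates H3K36, fell from 388 and 376 CPM to 324 and 316 CPM (-0.26, SE 0.04, adjusted p = 3.17e-10). In both genes the treated libraries agreed closely, and every alternative kept the calls.

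The other H3K36 enzymes had smaller differences that did not pass the test. Setd2, the sole H3K36 trimethylase, had 98.1 and 102 CPM in the controls, against 91.2 and 90.3 CPM with treatment (adjusted p = 0.113), and Nsd3 had 143 and 144 CPM, against 132 and 135 CPM (adjusted p = 0.137). Both were called without scaling factors and among genes that averaged 10 CPM or more. Nsd1 was low, at 12.0 and 11.5 CPM in the controls, against 9.78 and 12.9 CPM with treatment, and its direction turned without 1-nitropyrene replicate 2. Per kb, Nsd2 made up 71.1% and 70.5% of the summed NSD level in the controls and 69.3% and 67.9% with treatment. Dot1l, the H3K79 methyltransferase, had 55.7 and 59.5 CPM against 54.3 and 58.2 CPM, with a 95% interval of the treated-to-control ratio from 0.879 to 1.10. Setd3, which methylates a histidine of actin, had an interval from 0.979 to 1.15.

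In the H4K20 group Kmt5b rose and Kmt5a was not called. Kmt5b, which turns monomethylated H4K20 into the di- and trimethylated forms, had 30.9 and 28.4 CPM in the controls, against 42.6 and 33.7 CPM with treatment (0.35, SE 0.11, adjusted p = 0.00506). The treated libraries were further apart than 1-nitropyrene replicate 3 was from the controls, and the call ended in DESeq2 (adjusted p = 0.201), without control replicate 2 and without 1-nitropyrene replicate 2. Kmt5a, the H4K20 monomethylase, had 46.4 and 52.7 CPM in the controls, which enclosed the treated values of 51.1 and 50.2 CPM.

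The 4 core genes of PRC2 did not move as a unit. Suz12, a scaffold subunit, had the highest listed level of the 51 genes per kb of exon, at 74.0 and 72.2 CPM per kb in the controls. It fell from 366 and 357 CPM to 310 CPM in both treated libraries, or a log2 change of -0.22 (SE 0.04, adjusted p = 1.56e-07). Every alternative kept this call. Suz12 shares 178 bp of exon with the opposite-strand gene Gm26563. That gene had 574 and 367 counts in the controls, against 427 and 399 with treatment. Eed, which reads H3K27 trimethylation, had 62.3 and 57.3 CPM in the controls, against 71.5 and 64.9 CPM with treatment, and missed the threshold (0.18, SE 0.08, adjusted p = 0.0712), although it was called without 1-nitropyrene replicate 3 (adjusted p = 0.0314). The treated libraries of Eed lay above both controls and those of Suz12 below. The ratio of Suz12 to Eed per kb was 4.55 and 4.82 in the controls and 3.35 and 3.70 with treatment.

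Neither catalytic subunit of PRC2 was called. Ezh2, the form of dividing cells, had 109 and 115 CPM in the controls, against 112 and 102 CPM with treatment, groups that overlapped, with a ratio of treated to control between 0.882 and 1.04. Ezh1, the form of resting cells, had 16.9 and 17.1 CPM in the controls, against 15.1 and 13.8 CPM with treatment (adjusted p = 0.287).

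Of the 3 core PRC1 genes 1 was called. Bmi1, the PCGF subunit that holds the INK4A locus silent in young cells, had 34.8 and 34.7 CPM in the controls, against 49.3 and 40.0 CPM with treatment (0.36, SE 0.10, adjusted p = 0.00154). Both treated libraries were higher, by unequal amounts, and the call was lost in DESeq2 (adjusted p = 0.145), as it was without 1-nitropyrene replicate 2 (adjusted p = 0.249). A near-identical processed copy of Bmi1, Gm5946 on chromosome X, held 25 and 24 counts in the controls, against 31 in each treated library. The ubiquitin ligase Rnf2 (RING1B) had 36.1 and 34.7 CPM in the controls, against 42.9 and 35.4 CPM with treatment, and its paralogue Ring1 had 35 and 44 counts against 20 and 33, and neither passed the test.

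Of the 15 tested demethylase genes (the KDM genes with Phf8) 2 rose and 3 fell, a called share of 33.3%, beside 24.5% of all genes tested. That share lies near the 34.3% of all genes that averaged 10 CPM or more, a level that Kdm4c, at 7.23 CPM, did not reach. Kdm1a (LSD1), which removes single and double methyl groups from H3K4, had 120 and 119 CPM in the controls, against 129 and 136 CPM with treatment (0.15, SE 0.06, adjusted p = 0.0392). This was the least firm of the calls: it ended in DESeq2 (adjusted p = 0.329), in limma-voom (adjusted p = 0.0612), without scaling factors, at a mean of at least 10 CPM, at an adjusted p of 0.01, and without 3 of the 4 libraries in turn. Kdm1b had 11.6 and 9.75 CPM in the controls, against 14.0 and 11.6 CPM with treatment, and was not called; it shares 505 bp of exon with Dek on the opposite strand, which had 1814 counts in control replicate 1.

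Kdm3a, a JmjC demethylase of H3K9 that is known to be induced by low oxygen, rose. It had 79.9 and 84.6 CPM in the controls, against 99.5 and 103 CPM with treatment, or a log2 change of 0.31 (SE 0.07, adjusted p = 2.76e-05). Every alternative kept this call. Its paralogue Kdm3b had 56.8 and 58.0 CPM in the controls, against 58.0 and 51.5 CPM with treatment, and the ratio of Kdm3a to Kdm3b per kb went from 2.41 and 2.50 to 2.94 and 3.44. Kdm2a, a CpG-island-bound H3K36 demethylase, had 259 and 271 CPM in the controls, against 279 and 272 CPM with treatment. Its difference did not pass the test, with a ratio between 0.984 and 1.10. Kdm2b had a ratio between 0.887 and 1.11 and Kdm4a between 0.873 and 1.28. Kdm4c had 8.37 and 6.88 CPM in the controls, against 8.17 and 5.52 CPM with treatment, groups that overlapped.

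Within the KDM5 family, which strips H3K4 di- and trimethylation, only Kdm5b, which was low in this table, was called by edgeR. Kdm5c, encoded on chromosome X, made up 86.9% of the listed family level per kb in both controls and 88.2% and 87.5% with treatment. It had 326 and 330 CPM in the controls, against 336 and 355 CPM with treatment, higher in both treated libraries but not called (0.07, SE 0.04, adjusted p = 0.155). Kdm5b had 14.5 and 18.3 CPM in the controls, against 11.8 and 10.5 CPM with treatment (-0.52, SE 0.17, adjusted p = 0.0106). Its call ended in DESeq2 (adjusted p = 0.192), at an adjusted p of 0.01, without control replicate 2 and without 1-nitropyrene replicate 3. Kdm5a overlapped between groups at 85.8 and 83.1 CPM against 79.5 and 92.4 CPM.

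In the group of KDM6, KDM7 and PHF8 demethylases, Kdm6b and Kdm7a fell and Kdm6a and Phf8 were not called. Kdm6b (JMJD3), a stress-induced H3K27 demethylase, had 112 and 121 CPM in the controls, against 97.5 and 104 CPM with treatment (-0.20, SE 0.06, adjusted p = 0.0059). The treated values lay below the controls, and the call ended in DESeq2 (adjusted p = 0.17), without control replicate 2 and without 1-nitropyrene replicate 2. Kdm6bos, on the opposite strand, shares 286 bp of exon with it. Kdm6a (UTX), its X-linked paralogue, had 85.9 and 80.4 CPM in the controls, against 80.3 and 73.8 CPM with treatment (adjusted p = 0.221).

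Kdm7a, which acts on H3K9 and H3K27 dimethylation, had 22.2 and 19.9 CPM in the controls, against 13.3 and 15.0 CPM with treatment (-0.58, SE 0.15, adjusted p = 0.000662). It fell in both treated libraries, and the call ended in DESeq2 (adjusted p = 0.0945) and without control replicate 1. An opposite-strand transcript, 4930599N23Rik, shares 287 bp of exon with it and had 22 and 26 counts in the controls, against 7 and 12 with treatment, so without a stated strand setting the loci cannot be told apart there. Phf8 had 28.2 and 23.6 CPM in the controls, against 26.1 and 25.1 CPM with treatment, between the control values.

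Genes that work with these enzymes were followed in a list of 116 partners, of which 115 were in the table and 85 were tested. Here 18 rose and 12 fell, or 21.2% and 14.1% of those tested, beside 13.2% and 11.2% of all genes, with a median log2 fold change of 0.02. Among partners that averaged 10 CPM or more, 16 of 65 rose (24.6%) and 11 fell (16.9%), beside 19.8% and 14.4% of all genes at that level. The difference between this list and the 51 genes was not tested. The partners named beyond the 3 with the smallest p in each direction and the one with the highest mean CPM of each complex were chosen after their values were seen.

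Of the 30 partner calls, 12 were kept with each library left out in turn: Aebp2, Rbbp7, Rbbp4, Hcfc1, Ahcy, Prmt1, Prmt3 and Prmt5, which rose, and Mat2a, Auts2, Carm1 and Phf21a, which fell. DESeq2 called 10 of these 12, without Rbbp4 and Prmt1. The other 18 calls ended without at least 1 library, and DESeq2 called none of them (it gave Atf7ip and Smyd2 no adjusted p). Leaving out control replicate 1 ended those of Ncoa6, Psip1, Hcfc2, Atf7ip, Morc2a, Chd4, Rcor1, Phf2, Jmjd1c, Bcor and Cbx6. Leaving out control replicate 2 ended those of Psip1, Cxxc1, Adnp, Atf7ip, Atrx, Morc2a, Hdac2, Ahcyl1, Jmjd6, Smyd2 and Cbx6. Without 1-nitropyrene replicate 2 the calls of Ncoa6, Cxxc1, Hcfc2, Atrx, Chd4, Ahcyl1 and Smyd2 were lost. Without 1-nitropyrene replicate 3 those of Psip1, Hcfc2, Adnp, Atf7ip, Atrx, Morc2a, Chd4, Hdac2, Jmjd6, Smyd2, Bcor and Cbx6 were lost.

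PRC2 accessory subunits had 3 called genes of 8 tested, and all 3 rose, while the core gene Suz12 fell. Beside this complex and those below, 24.5% of all genes tested were called, 13.2% higher and 11.2% lower. At 10 CPM or more 34.3% of all genes were called, 19.8% higher and 14.4% lower. Aebp2, a subunit of the PRC2.2 form, had 80.7 and 80.3 CPM in the controls, against 122 and 117 CPM with treatment (0.57, SE 0.06, adjusted p = 9.88e-18). The histone chaperone Rbbp7, shared by PRC2 and deacetylase complexes, rose from 888 and 878 CPM to 1024 and 1037 CPM (0.22, SE 0.03, adjusted p = 7.28e-14), and its paralogue Rbbp4 rose by 0.19 on the log2 scale (SE 0.05). Both treated libraries lay above both controls in each of these genes, and the Rbbp4 call ended in DESeq2 (adjusted p = 0.0511). Among PRC1 accessory and deubiquitinase genes 3 of 21 tested were called, and these fell: Auts2 from 95.5 and 88.6 CPM to 72.7 and 71.2 CPM (-0.36, SE 0.07, adjusted p = 2.04e-06), Bcor and Cbx6. Bap1, the deubiquitinase of H2A, had 287 and 288 CPM in the controls, against 288 and 315 CPM with treatment, and was not called (0.07, adjusted p = 0.214).

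COMPASS and MLL subunits had 3 of 12 tested genes higher and 2 lower. The scaffold Hcfc1 rose from 267 and 253 CPM to 311 and 325 CPM (0.29, SE 0.04, adjusted p = 4.4e-11), a change every alternative kept. Psip1 and Cxxc1 were the other two called higher, and Ncoa6 and Hcfc2 were called lower. Heterochromatin partners had 5 called genes of 11 tested (Chd4, Atrx, Morc2a, Adnp and Atf7ip), each called higher and each lost with at least 1 library left out. Of all genes tested 13.2% were called higher, and of those that averaged 10 CPM or more 19.8%. Chd4, a remodelling ATPase, had 422 and 451 CPM in the controls, against 468 and 461 CPM with treatment (0.09, SE 0.03, adjusted p = 0.0344). Of 10 tested LSD1 complex partners, Phf21a and Rcor1 fell and Hdac2 rose. Zmym2, with the highest mean CPM of these partners, had 121 and 132 CPM in the controls, against 127 CPM in both treated libraries, and was not called (0.02, adjusted p = 0.877).

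Enzymes that supply the methyl donor moved in both directions. Mat2a, which makes S-adenosylmethionine, fell from 425 and 432 CPM to 366 and 372 CPM (-0.22, SE 0.04, adjusted p = 5.33e-08), and Ahcy, which clears the by-product S-adenosylhomocysteine, rose from 130 and 147 CPM to 176 and 168 CPM (0.33, SE 0.05, adjusted p = 7.88e-09). Of 7 tested arginine methyltransferase genes 3 rose (Prmt1, Prmt3 and Prmt5) and 1 fell, Carm1, from 342 and 340 CPM to 297 and 302 CPM (-0.19, SE 0.04, adjusted p = 2.48e-05). All 3 tested genes among the other demethylases were called, Jmjd1c and Jmjd6 higher and Phf2 lower, beside 42.9% of all genes that averaged 30 CPM or more. Jmjd6 had 93.1 and 83.6 CPM in the controls, against 100.1 and 102 CPM with treatment (0.18, SE 0.06, adjusted p = 0.0201). Among other lysine methyltransferases 1 of 9 tested genes fell, Smyd2, at under 5 CPM in every library. The Smyd2 call was also lost in limma-voom (adjusted p = 0.0651) and at an adjusted p of 0.01, and DESeq2 gave it no adjusted p. Prdm4, with the highest mean CPM of that group, had 28.4 and 29.8 CPM in the controls, against 30.5 and 25.9 CPM with treatment, and was not called (-0.04, adjusted p = 0.853).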

How the data were processed

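The deposited table holds raw read counts per gene for 4 libraries, made by the authors with no normalization. Per the submitters' processing notes, HISAT2 2.1.0, featureCounts 1.6.3, DESeq2 and GRCm38 (mm10) were used. Their annotation release, strand setting and handling of multi-mapping reads are not stated. Per the labels' protocols the library kit was stranded.

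Symbols, coordinates and exon lengths came from GENCODE M21 on GRCm38, which matched 53360 of 53465 identifiers. Counts were filtered with filterByExpr and scaled with TMM factors (0.989 to 1.01), then fitted with edgeR 4.0.16 (quasi-likelihood, legacy set to FALSE) in R 4.3.3, with an intercept and the treatment. Its prior degrees of freedom came out as infinite, which means that each gene's spread was set by its level from all genes together. Each standard error is the absolute log2 fold change over the square root of F. CPM per kb uses the union of a gene's exons. Near-identical copies were transcripts elsewhere with at least 95% identity over 200 bp (BLAST). Alternatives were RLE or no scaling, other filters, DESeq2 1.42.0, limma-voom (limma 3.58.1), other quasi-likelihood settings, an adjusted p of 0.01 and each library left out. The fit was tested on simulated data with the same spread for all genes and fewer changed genes than were called here. Changes as small as those of Kdm1a, Cbx3 and Kmt2d were not simulated, so the simulation does not cover them. The genes, the partner list and the tests were chosen with earlier results of these data known. Values in every library are given for the called genes and the gene with the highest mean CPM of each group, and, of the partners, for the 3 called genes with the smallest p in each direction and the one with the highest mean CPM of each complex; other genes with such values were added for comparison after their values were seen.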

Additional observations from a re-analysis of the deposited data

How the results depend on the processing

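DESeq2 called fewer genes: 697 of all genes against 1894, 2 higher and 7 lower of the 51 genes against 6 and 15, and 6 higher and 4 lower partners against 18 and 12. With 1 library left out, all calls ranged from 1201 (without control replicate 1) to 1502. The 51 genes then had from 3 (without 1-nitropyrene replicate 2) to 6 higher and from 10 to 12 lower, and the partners from 10 (without control replicate 2) to 16 higher and from 6 (without control replicate 1) to 9 lower. At an adjusted p of 0.01, 11 partners were higher and 7 lower. Among genes averaging 30 CPM or more, a count added after seeing the data, 1236 were called. None of the 21 called genes changed direction in the 15 alternatives. Of 1202 gene values under alternatives (5 values to which DESeq2 gave no adjusted p are left out), 1056 kept direction and side of the threshold, 122 lost a call, 6 gained one and 18 reversed, the last all in genes that were not called. The log2 fold changes of these genes with 1 library left out ranged from -0.082 to 0.023 for Dot1l, -0.085 to 0.058 for Kdm2b, -0.156 to 0.016 for Kdm3b, -0.494 to 0.069 for Kdm4c, -0.092 to 0.125 for Kdm5a, -0.060 to 0.124 for Kmt5a, -0.274 to 0.129 for Nsd1, -0.142 to 0.115 for Phf8, -0.165 to 0.073 for Prdm4, -0.0057 to 0.273 for Rnf2 and -0.052 to 0.067 for Zmym2. Without scaling factors Kdm5a was at -0.010 and Zmym2 at -0.014, and at an average of 10 CPM or more Kdm5a was at -0.0025 and Zmym2 at -0.0066. The cause was not tested. No paired analysis was possible because the groups share only replicate number 2. Fits on 3 libraries take the spread of the single remaining library from the other group. The spread of each gene was set by its level from all genes together, so the standard errors do not reflect a gene's own replicates. Genes with few counts, such as Ehmt2, Suv39h2 and Ring1, are limited by depth.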
